A study of Homo sapiens with 4 samples.

Results

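The interferon-stimulated genes (ISGs) are genes that cells switch on when interferon binds its receptor. The set examined here held 52 human ISGs, among them sensors of double-stranded RNA, antiviral effectors, guanylate-binding proteins and transcription factors of the interferon response. A gene was included when its name appeared in the deposited intensity table on a non-control spot with a quality weight above 0 on all 4 arrays, and it was represented by its brightest probe. All 52 genes met this rule, out of 17938 named genes. The question was how far these genes differed between siRNAs, since short double-stranded RNA can itself be sensed as foreign.

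The arrays came from THP1, an established monocytic cell line of acute myeloid leukemia (AML M5) that carries the MLL-AF9 fusion gene. Knockdown cells received siRNA-A or siRNA-B (siRNA3 and siRNA4 in the labels), both directed against the fusion point of the MLL-AF9 transcript, and control cells received control siRNA-1 or control siRNA-2, both non-targeting. All cells were transfected on days 0, 3 and 6 and harvested on day 8. They were grown in RPMI medium with 10% serum and, from a change of medium on day 6, in DMEM/Ham's medium with albumin and 0.5% serum. RNA of 5 experiments was pooled on each single-colour array, so that 1 array stood for each siRNA, 2 for knockdown and 2 for control. Cells without any siRNA were not analysed here, so a level caused by transfection in general cannot be told apart from the resting level of the cells.

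Double-stranded RNA in the cytoplasm is bound by RIG-I and MDA5, encoded by DDX58 and IFIH1, which signal towards the production of type I interferon. Secreted interferon signals through its receptor to a complex containing STAT2 and IRF9, which binds the interferon-stimulated response element in the promoters of ISGs. Monocytic cells are well equipped with such sensors, and the induction of ISGs is a known side effect of some siRNAs.

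All values below are log2 intensities without background correction or normalization between arrays, as the study analysed them, and levels are compared only between arrays of the same probe. The median over all genes differed by 0.071 between siRNA-B and siRNA-A and by -0.068 between control siRNA-1 and control siRNA-2, and values after cyclic loess normalization, which removes such shifts, are given beside the main results. Of the members, 51 were well above background on all 4 arrays and 0 were saturated. GBP1 was well above background on 1 control array and on 0 knockdown arrays, so no fold is given for it. The 4 arrays shared 1 slide, so that the siRNA, its array and its place there cannot be told apart. Of 9 monocyte markers 8 were analysed, and all 8 were well above background on every array, as were 4 of 5 markers of T and NK cells, 3 of 4 of B cells, 3 of 4 of the erythroid and megakaryocyte lineages and 2 of 4 of fibroblasts and epithelium. MLLT3, the gene of AF9, was at 6.82 with siRNA-A, 6.87 with siRNA-B, 7.59 with control siRNA-1 and 7.61 with control siRNA-2, lower after knockdown by a log2 difference of -0.76 (adjusted p = 0.0639 in limma, called at an unadjusted p of 8.04e-05). MLL was at 10.55, 10.64, 10.95 and 11.08 on its brightest probe (-0.41, adjusted p = 0.403 in limma), and its other probes differed by -0.085 to 0.048. The paper reports no significant change of wild-type MLL and AF9 transcripts after knockdown. Whether these probes read the wild-type or the fusion transcript was not tested here, so the values are not read as a loss of wild-type AF9 or MLL.

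The promoters of many members carry the core of the response element, which is GAAA, 2 bases of any kind (NN) and GAAA again. In RefSeq promoter windows (GRCh38.p14, 250 bases before to 50 bases after the start of each gene), searched on both strands with overlapping matches allowed, it was present in 28 of 41 members with a window (68.3%), in 4.38% of 27305 genes and in 3.57% of 35116 windows. DDX58 was matched under its current symbol RIGI. These stretches of 5 members are shown because they hold the letters that the promoters share. Each is written 5′ to 3′ on the strand of the gene, with the matches to this core or its reverse complement in capitals.
IFI44L, chr1:78620264-78620404, plus strand: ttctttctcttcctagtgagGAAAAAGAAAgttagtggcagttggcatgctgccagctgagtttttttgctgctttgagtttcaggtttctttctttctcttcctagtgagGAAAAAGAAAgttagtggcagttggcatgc
IFI44, chr1:78649751-78649788, plus strand: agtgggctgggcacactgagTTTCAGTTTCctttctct
IFIT1, chr10:89392487-89392549, plus strand: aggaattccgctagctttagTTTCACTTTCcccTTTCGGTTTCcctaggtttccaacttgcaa
ISG15, chr1:1013364-1013419, plus strand: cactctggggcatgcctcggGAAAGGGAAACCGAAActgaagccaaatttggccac
IFITM3, chr11:320866-320932, minus strand: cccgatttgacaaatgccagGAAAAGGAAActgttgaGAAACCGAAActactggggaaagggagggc
IFI44 and IFI44L are neighbours on chromosome 1, and IFI44L, IFIT1, ISG15 and IFITM3 each hold 2 matches, those of ISG15 overlapping. Members with and without a match had similar differences between siRNA-B and siRNA-A (median log2 difference 0.28 with a match, 0.30 in the 13 without), and 0.32 and 0.23 between control siRNA-1 and control siRNA-2. A match describes the sequence and does not show that a factor was bound.

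Between the 2 knockdown and the 2 control arrays 0 of 52 members passed the call threshold (limma, unadjusted p under 0.005), which 1.33% of all genes reached (0.630% higher, 0.702% lower after knockdown). With 52 members a count of 0 lies near this background, and 1 member, MNDA, was called under 5 of the alternative settings given beside its values. At an unadjusted p under 0.05 there were 2, MNDA and IFI44L, against a background of 8.00% of all genes, and 0 members had an adjusted p under 0.05 (0.123% of all genes). The median log2 difference was -0.071 (all genes -0.021), with 20 members higher and 32 lower and a range from -0.46 (GBP2) to 0.70 (IFI44L). The sign of this median turned with the array left out, from -0.22 with control siRNA-2 left out and -0.19 with siRNA-B left out to 0.086 and 0.091 with siRNA-A or control siRNA-1 left out. Both knockdown arrays lay above both control arrays in MNDA and SAMD9, where 15.0% of all genes did so. They lay below both in 6 members, DDX58, ADAR, IRF9, MX1, HERC6 and GBP5, where 21.2% of all genes did so.

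**Figure D1:**
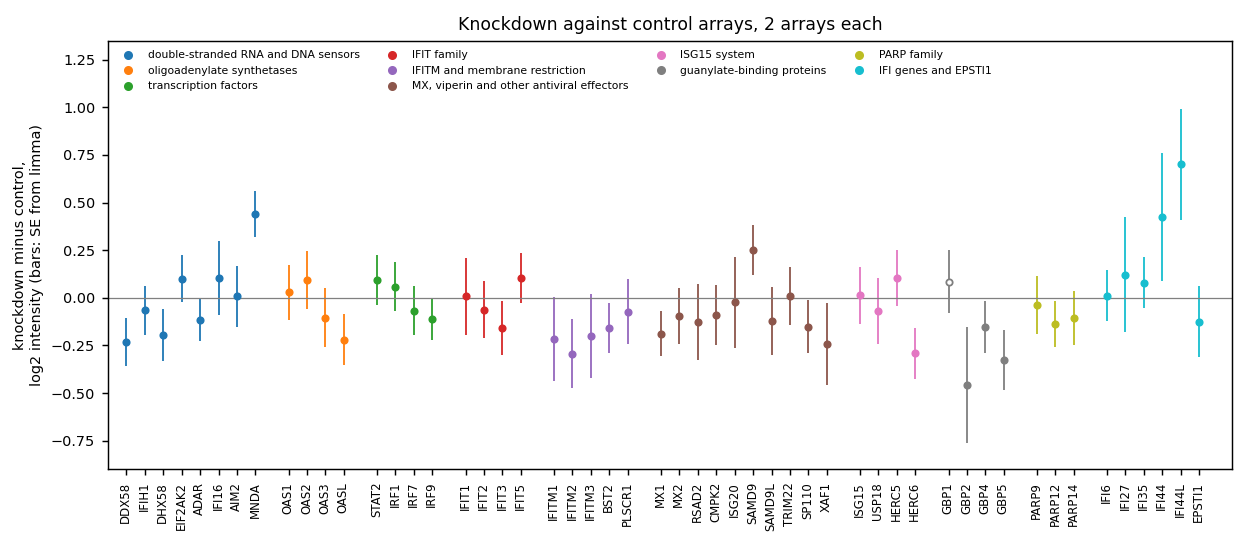
Knockdown minus control on the log2 intensity scale for the 52 interferon-stimulated genes, grouped by role, each point the difference of the means of 2 knockdown and 2 control arrays and each bar its standard error from limma; GBP1 is drawn open because it was not well above background on 3 arrays. Most points lie close to 0, and IFI44L (0.70) and MNDA (0.44) are the highest.

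MNDA, a nuclear DNA-binding protein of the myeloid lineage, was at 13.56 with siRNA-A, 13.76 with siRNA-B, 13.28 with control siRNA-1 and 13.16 with control siRNA-2. Both knockdown arrays were above both control arrays, and its log2 difference was 0.44 (standard error 0.12, adjusted p = 0.401 in limma). MNDA missed the call threshold with an unadjusted p of 0.00583 in limma. It was called after quantile (0.50) or cyclic loess normalization (0.50), after background correction with quantile normalization (0.48), and at an unchanged difference among probes well above background and with the mean of all probes of each gene. MNDA was not called with the scaled processed signal (0.38), without weights, with an intensity trend or with any array left out (0.34 to 0.54). The paper lists MNDA among monocytic maturation markers raised after knockdown.

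The members also differed between the arrays of the same group. With siRNA-B 47 of 52 members were brighter than with siRNA-A, where 63.9% of all genes were, and the median log2 difference was 0.29 (1.22-fold, quartiles 0.16 and 0.44) against 0.071 for all genes. With control siRNA-1 49 of 52 members were brighter than with control siRNA-2, where 29.6% of all genes were, and the median log2 difference was 0.28 (1.22-fold, quartiles 0.17 and 0.41) against -0.068 for all genes. Both orders held together in 45 members (19.0% of all genes), and in 40 both siRNA-B and control siRNA-1 lay above both siRNA-A and control siRNA-2 (11.6% of all genes). After cyclic loess normalization the median was 0.18 between siRNA-B and siRNA-A, with 44 members brighter (49.9% of all genes; IRF7, MX1 and ISG20 no longer were), and 0.37 between the controls, with 52 members brighter (50.9% of all genes), and both orders held in 44 (27.4%). Both siRNA-B and control siRNA-1 then lay above both other arrays in 38 members (15.9% of all genes). With 1 array for each siRNA these differences have no replicate check and were not tested. Of the monocyte markers 7 of 8 were brighter with siRNA-B than with siRNA-A (median log2 difference 0.24, with ITGAM at 0.67 and FCER1G at 0.43) and 4 of 8 with control siRNA-1 than with control siRNA-2 (median 0.020). The log2 of their summed intensity was 15.83 with siRNA-A, 16.11 with siRNA-B, 16.09 with control siRNA-1 and 15.98 with control siRNA-2. Their part in the differences of the ISGs was not tested.

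**Figure D2:**
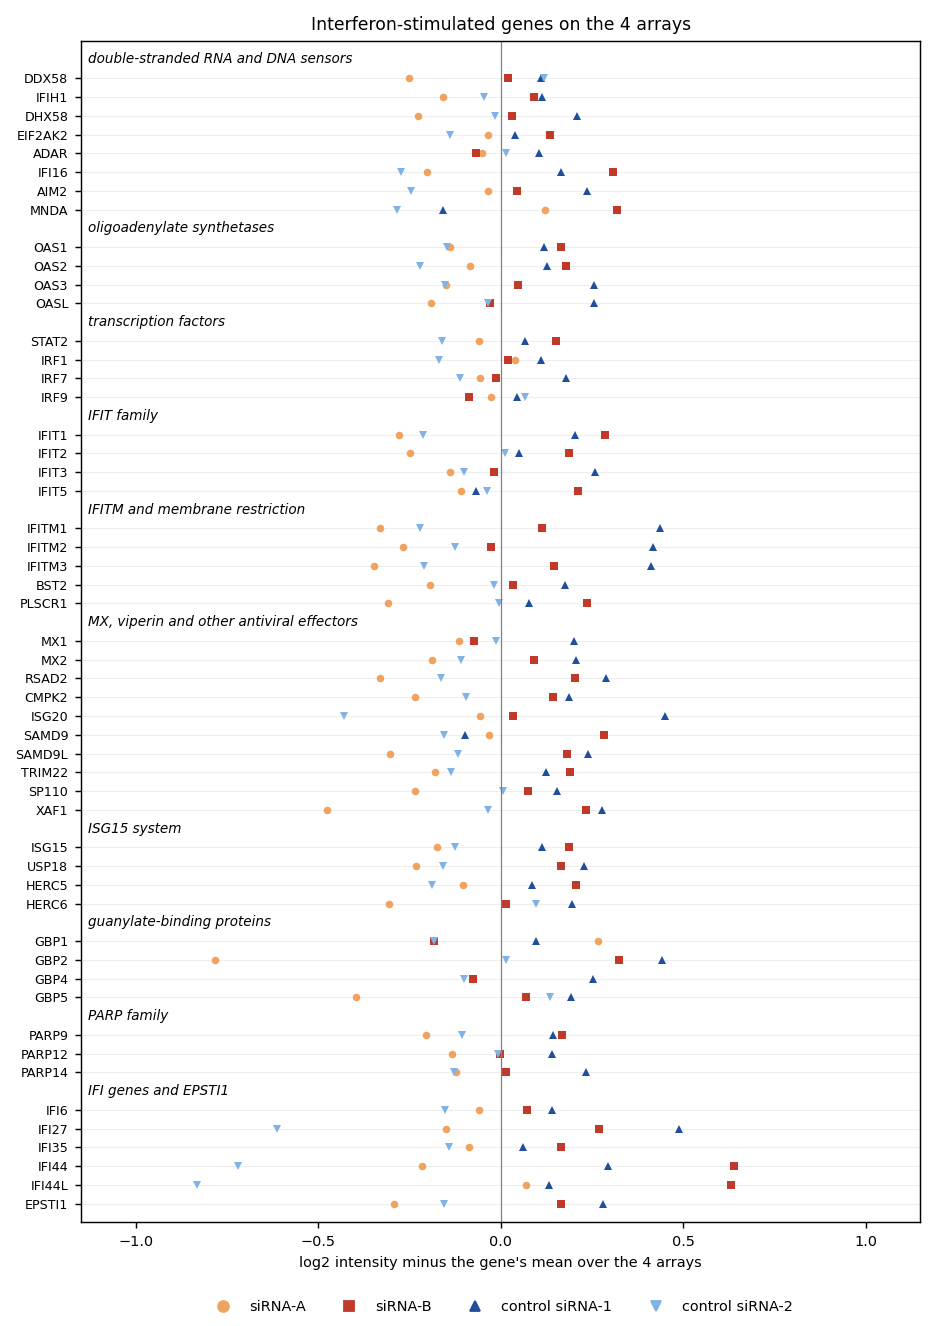
Log2 intensity of each interferon-stimulated gene on each of the 4 arrays, minus the mean of that gene over the 4 arrays, grouped by role. The siRNA-B squares and control siRNA-1 triangles lie to the right and the siRNA-A circles and control siRNA-2 triangles to the left in most genes, and the widest spreads are those of IFI44L, IFI44, IFI27 and GBP2.

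Control siRNA-1 gave the highest value of the 4 arrays in 31 members (12.7% of all genes), siRNA-B in 18 (33.1%) and control siRNA-2 in DDX58 and IRF9 (38.3%), and siRNA-A in no member well above background (15.9%). GBP1 has only a bound on 3 arrays, so the order of its arrays is not read, although the counts over 52 members include it. The lowest value was that of siRNA-A in 29 members (40.0% of all genes), of control siRNA-2 in 20 (12.7%), of siRNA-B in ADAR and IRF9 (19.5%, with GBP1 not read) and of control siRNA-1 in 0 (27.8%). Across the groups, the median of siRNA-B minus control siRNA-1 was -0.087 (all genes 0.047) and that of siRNA-A minus control siRNA-2 -0.069 (all genes -0.086). The crossed pairs were farther apart: siRNA-A minus control siRNA-1 had a median of -0.36 (all genes -0.021) with 49 members lower (54.2% of all genes), and siRNA-B minus control siRNA-2 one of 0.26 (all genes -0.020) with 45 members higher (44.8% of all genes). After cyclic loess normalization 48 members (48.8% of all genes) and 46 members (50.1% of all genes) had these orders. How siRNA-A and control siRNA-2 ranked depended on the normalization, since after cyclic loess normalization siRNA-A was lowest in 14 members and control siRNA-2 in 35.

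A log2 difference over 0.5 between siRNA-B and siRNA-A was reached by 8 members, all brighter with siRNA-B (1.93% of all genes): IFI16, IFIT1, PLSCR1, RSAD2, XAF1, GBP2, IFI44 and IFI44L. None was brighter with siRNA-A by as much (1.62% of all genes). Between the controls 7 members passed 0.5, all brighter with control siRNA-1 (0.942% of all genes): IFITM1, IFITM2, IFITM3, ISG20, IFI27, IFI44 and IFI44L, and 0 passed it the other way (0.892%). IFI44 and IFI44L passed it in both pairs. After cyclic loess normalization 3 members passed 0.5 between siRNA-B and siRNA-A, XAF1, GBP2 and IFI44 (1.19% of all genes), and 14 passed it between the controls (1.28%).

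**Figure D3:**
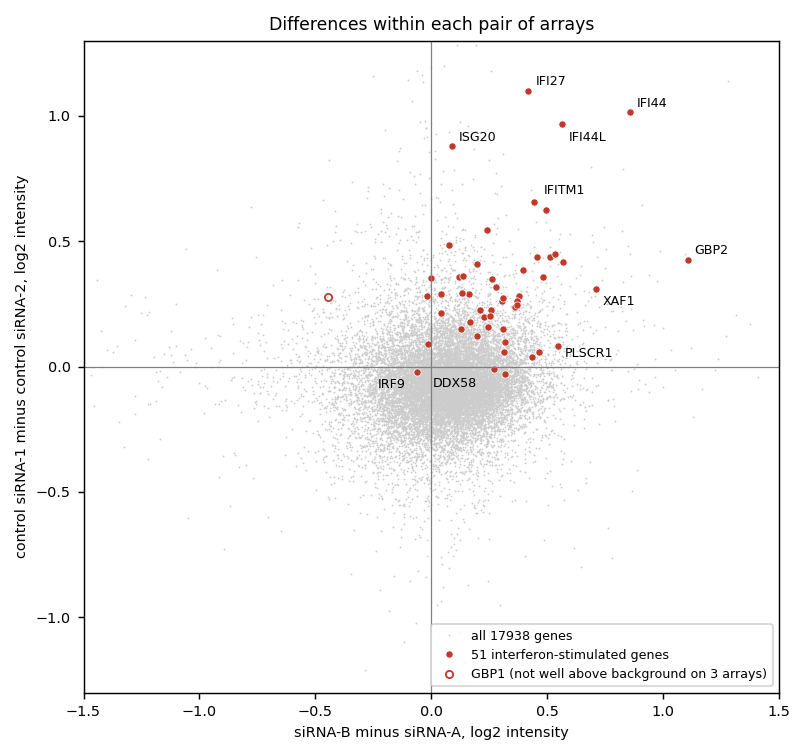
For each gene, the log2 intensity with siRNA-B minus that with siRNA-A (horizontal) and with control siRNA-1 minus that with control siRNA-2 (vertical), in grey for all 17938 genes (30 lie outside the axes) and in red for the interferon-stimulated genes. The red points lie mostly to the upper right of the origin, with GBP2 farthest along the horizontal axis, IFI27 along the vertical axis and IFI44 far along both.

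Among genes named for interferon induction, IFI44 was at 11.17 with siRNA-A, 12.02 with siRNA-B, 11.68 with control siRNA-1 and 10.66 with control siRNA-2. It was 1.81-fold brighter with siRNA-B than with siRNA-A and 2.02-fold brighter with control siRNA-1 than with control siRNA-2, while knockdown and control overlapped (11.59 ± 0.61 against 11.17 ± 0.72, SD, n = 2 arrays each; log2 difference 0.42, adjusted p = 0.814 in limma). Its neighbour IFI44L was at 12.18, 12.75, 12.25 and 11.28 in the same order of arrays. The value with control siRNA-2 stood below the others, and the log2 difference between knockdown and control was 0.70 (standard error 0.29, adjusted p = 0.605 in limma). It was 0.22 with control siRNA-2 left out and 1.18 with control siRNA-1 left out. IFI27, a mitochondrial protein that is among the genes most responsive to type I interferon, was at 13.99, 14.41, 14.63 and 13.53, 2.14-fold brighter with control siRNA-1 than with control siRNA-2 and 1.34-fold brighter with siRNA-B than with siRNA-A. In the whole group of IFI6, IFI27, IFI35, IFI44, IFI44L and EPSTI1 all 6 members followed both orders, with median log2 differences of 0.44 and 0.70.

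Members that act at membranes differed along the same lines. IFITM1, IFITM2 and IFITM3 are small membrane proteins that block the fusion of viruses with the cell. IFITM1 was at 13.81 with siRNA-A, 14.26 with siRNA-B, 14.58 with control siRNA-1 and 13.92 with control siRNA-2, IFITM2 at 13.45, 13.69, 14.14 and 13.59, and IFITM3 at 14.13, 14.62, 14.89 and 14.26. In each of them control siRNA-1 was highest and siRNA-A lowest, and the log2 difference between the controls was 0.66, 0.54 and 0.62. The probes of IFITM2 (chr11:309109-309168, hg19) and IFITM3 (chr11:319855-319914, hg19) resemble each other, which is why they are shown here; 34 of 40 bases match in their best alignment without gaps, and capitals mark the longest shared run of 17 bases.
IFITM2 probe, bases 1 to 40: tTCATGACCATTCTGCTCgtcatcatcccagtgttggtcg
IFITM3 probe, bases 21 to 60: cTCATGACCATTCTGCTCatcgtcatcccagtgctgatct
Whether each probe also binds transcripts of the other gene was not tested, and the longest run that the IFITM1 probe shared with either of them was 6 bases. The other IFITM1 probe showed log2 differences of 0.56 and 0.48. PLSCR1, a phospholipid scramblase, differed by 0.55 between siRNA-B and siRNA-A and by 0.083 between the controls, and BST2 (tetherin), which holds budding virus particles at the membrane, by 0.23 and 0.20.

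The sensors of nucleic acids and the oligoadenylate synthetases varied among themselves. IFI16 and AIM2, sensors of DNA, differed by 0.51 and 0.079 between siRNA-B and siRNA-A and by 0.44 and 0.48 between the controls, and AIM2 was not brighter with siRNA-B with the scaled processed signal. DDX58 was at 9.78 with siRNA-A, 10.06 with siRNA-B, 10.15 with control siRNA-1 and 10.15 with control siRNA-2, and its control arrays differed by -0.0076 on the log2 scale. Its other probe was at 7.83, 7.30, 8.10 and 7.98, so the order of siRNA-A and siRNA-B was turned on that probe, and the knockdown arrays were below the control arrays on both (-0.23 and -0.47, adjusted p = 0.720 and 0.534 in limma). IFIH1 was at 11.77, 12.02, 12.04 and 11.88, and EIF2AK2, the kinase PKR that halts translation on binding double-stranded RNA, at 13.48, 13.65, 13.55 and 13.37. In both genes siRNA-B exceeded siRNA-A and control siRNA-1 exceeded control siRNA-2, by 0.16 to 0.25. OAS1, which makes the second messenger that activates RNase L, was at 10.41, 10.72, 10.67 and 10.41, and the other synthetases OAS2, OAS3 and OASL followed the same orders. Over the 8 members grouped with the sensors, ADAR and MNDA included, the median log2 differences were 0.22 and 0.17. Over the 4 oligoadenylate synthetases they were 0.23 and 0.32.

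Of the 4 members of the IFIT family all 4 were brighter with siRNA-B than with siRNA-A and 3 with control siRNA-1 than with control siRNA-2, and in the ISG15 system (4 members) and among MX, viperin and other antiviral effectors (10 members) all followed both orders, except that MX1 and ISG20 were not brighter with siRNA-B than with siRNA-A under any of the 3 normalizations tried. IFIT1, which binds viral RNA lacking the cap modification of the host, was at 12.50 with siRNA-A, 13.06 with siRNA-B, 12.98 with control siRNA-1 and 12.56 with control siRNA-2 (1.48-fold and 1.34-fold). The means of the groups differed by 0.0073 (12.78 ± 0.40 after knockdown, 12.77 ± 0.29 in controls, SD, n = 2 each). ISG15, a ubiquitin-like modifier, was at 15.24, 15.60, 15.52 and 15.29 and showed the same picture, with a log2 difference between the groups of 0.012. RSAD2 (viperin), an enzyme that makes a chain-terminating nucleotide, was at 8.64, 9.18, 9.26 and 8.81, and CMPK2, its neighbouring gene, differed by 0.38 and 0.28 on its brightest probe. On the other CMPK2 probe siRNA-B was below siRNA-A (-0.16) and the controls differed by 0.19.

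In MX1 and ISG20 the difference was mainly between the controls, and the order of siRNA-B and siRNA-A turned under quantile, cyclic loess and background-corrected quantile normalization and, in MX1, with the scaled processed signal. MX1, a GTPase that traps viral nucleocapsids, was at 15.25 with siRNA-A, 15.29 with siRNA-B, 15.57 with control siRNA-1 and 15.36 with control siRNA-2, so that siRNA-B and siRNA-A differed by 0.043 and both were below the controls (log2 difference -0.19, adjusted p = 0.761 in limma). ISG20, an RNA exonuclease, was at 11.43, 11.52, 11.94 and 11.06, with a 1.84-fold difference between the controls and a 1.06-fold difference between the knockdown siRNAs. XAF1, a pro-apoptotic protein that antagonises XIAP, was at 11.61, 12.32, 12.37 and 12.06, where siRNA-A stood below the others. The other XAF1 probe gave 0.21 between siRNA-B and siRNA-A, where the brighter gave 0.71.

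GBP2, a guanylate-binding protein induced by interferon gamma as well as by type I interferon, was at 7.24 with siRNA-A, 8.34 with siRNA-B, 8.46 with control siRNA-1 and 8.04 with control siRNA-2. Its 2.15-fold difference between siRNA-B and siRNA-A was the largest of the members in this pair, and the SD of the knockdown arrays (0.78) exceeded the difference between the groups (-0.46, adjusted p = 0.775 in limma). GBP5 was lowest with siRNA-A as well (6.78, against 7.25 to 7.37 on the other arrays), whereas GBP4 was equal with siRNA-A and siRNA-B (8.41).

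On unnormalized values the transcription factors of the response had the smallest median difference between the knockdown siRNAs of the role groups. Their single values ran from -0.061 to 0.21 (STAT2), and the groups were not compared by a test. IRF7, which amplifies the production of interferon alpha, was at 13.94 with siRNA-A, 13.98 with siRNA-B, 14.17 with control siRNA-1 and 13.88 with control siRNA-2, and its small difference between siRNA-B and siRNA-A turned under the 3 normalizations. The median log2 difference over STAT2, IRF1, IRF7 and IRF9 was 0.012 between siRNA-B and siRNA-A and 0.25 between the controls. On unnormalized values IRF9 ran against both orders, by -0.061 and -0.020, where the medians of all genes were 0.071 and -0.068. With IRF9, the exceptions between siRNA-B and siRNA-A were ADAR, IRF1 and the tie of GBP4, besides GBP1, which is not read, and those between the controls were DDX58 and IFIT5. With the scaled processed signal and under the 3 normalizations all 52 members were brighter with control siRNA-1 than with control siRNA-2. The order of IRF9, DDX58 and IFIT5 between the controls turned there.

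Identical spots gave a measure of the technical spread within arrays. EPSTI1, HERC5, SP110 and PARP12 were each printed as 10 identical spots. In EPSTI1 the spots differed by 0.46 ± 0.052 between siRNA-B and siRNA-A and by 0.44 ± 0.072 between the controls (mean ± SD over 10 spots), and all 10 spots showed both orders. HERC5, a ligase that attaches ISG15, differed by 0.31 ± 0.15 (9 of 10 spots) and 0.27 ± 0.054 (10 of 10), and SP110, a nuclear body protein, by 0.31 ± 0.062 and 0.15 ± 0.077 (10 of 10 each). PARP12 differed by 0.13 ± 0.26 between siRNA-B and siRNA-A (8 of 10 spots), a difference within the spread of its spots, and by 0.15 ± 0.040 between the controls (10 of 10). Spots of 1 array share the same pooled RNA, so they describe the measurement and not the biological spread. Of the members, 11 had several probes, and 12 probes were not the brightest of their gene. Of these 10 were brighter with siRNA-B than with siRNA-A and 12 with control siRNA-1 than with control siRNA-2, with median log2 differences of 0.21 and 0.32, and 0 were called between knockdown and control.

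**Figure D4:**
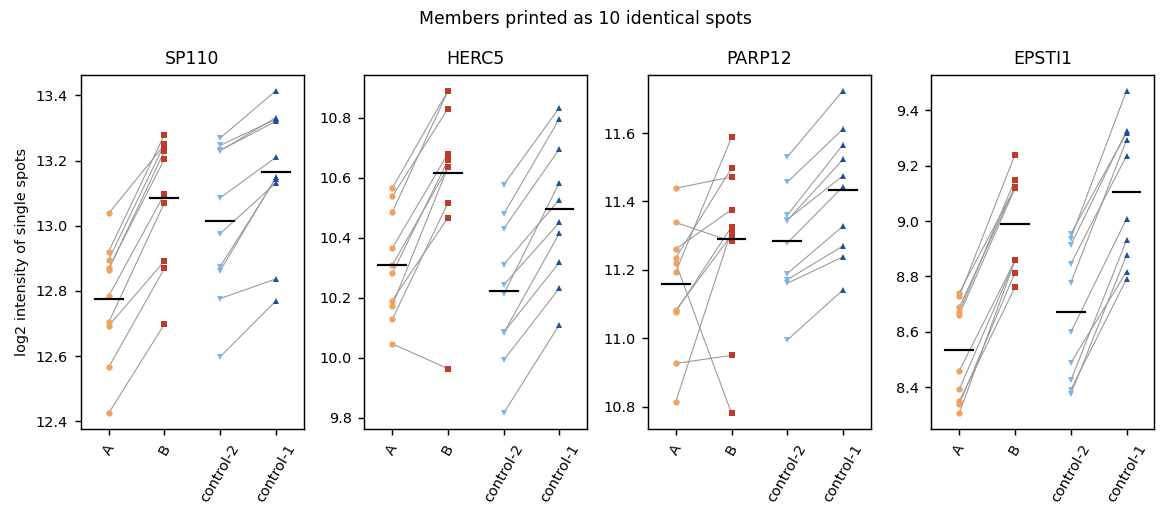
Log2 intensity of the 10 identical spots of SP110, HERC5, PARP12 and EPSTI1 on each array, with grey lines joining the same spot between siRNA-A and siRNA-B and between control siRNA-2 and control siRNA-1, and black bars at the means. The lines rise in 37 of 40 spots from siRNA-A to siRNA-B and in 40 of 40 from control siRNA-2 to control siRNA-1, and each panel has its own axis.

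Other genes of the interferon and small RNA pathways were examined in the same pairs. Of 21 interferon genes 6 were analysed and 4 were well above background on all arrays. Of these 4, 2 were brighter with siRNA-B than with siRNA-A and 2 with control siRNA-1 than with control siRNA-2. IFNB1, interferon beta, was at 6.41 with siRNA-A, 6.70 with siRNA-B, 6.43 with control siRNA-1 and 6.82 with control siRNA-2, against the order of the ISGs between the controls. Over 9 genes of interferon receptors and JAK-STAT signalling the median log2 differences were 0.13 and -0.020, over 17 genes of nucleic acid sensing 0.17 and -0.032, over 9 negative regulators 0.069 and -0.077, and over 12 genes of the small RNA machinery, such as DICER1, 0.11 and -0.071. Each of these 4 medians between the controls lay near that of all genes. Among 9 analysed chemokines and cytokines of an innate response they were 0.13 and 0.23. Single genes of this list ranged from -0.65 to 0.75 between siRNA-B and siRNA-A and from -0.25 to 0.47 between the controls. In each pair 7 of the 9 had the order of the ISGs. CXCL10 and CXCL11, attractants of T cells, differed between the controls by 0.35 and 0.40 and between the knockdown siRNAs by 0.047 and 0.013.

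Between knockdown and control 4 of these 62 pathway genes were called, where 1.33% of all genes were, with CCL2, SOCS3 and ZBP1 higher (0.630% of all genes) and IFNAR2 lower (0.702%). CCL2, the monocyte attractant MCP-1, was at 7.76 with siRNA-A, 7.12 with siRNA-B, 6.05 with control siRNA-1 and 5.82 with control siRNA-2, an increase by 1.50 (log2 difference, standard error 0.20, limma adjusted p = 0.0405). Both knockdown arrays were above both control arrays, and siRNA-A was above siRNA-B, whereas 47 of the 52 ISGs had the other order. The call of CCL2 was lost when control siRNA-1 (1.62) or control siRNA-2 (1.39) was left out and with the scaled processed signal (2.20). With an array left out, the spread rests on the remaining pair of arrays and on a variance that limma draws from all probes. A lost call in such a fit, for CCL2 or for the genes below, does not by itself show a smaller difference. SOCS3, which inhibits JAK-STAT signalling, rose by 0.53 (7.45 and 7.71 after knockdown, 7.06 and 7.05 in controls, adjusted p = 0.286 in limma), and was not called when siRNA-B (0.40) or a control array (0.53, 0.52) was left out, or with the scaled processed signal (0.72). ZBP1, a sensor of Z-form nucleic acids, stood well above background with 1 of the knockdown siRNAs and with 0 of the controls, so no difference is given for it. Its call was lost when any array was left out and under the 3 normalizations and with an intensity trend in the variance. The call of IFNAR2, a chain of the type I interferon receptor, rests on its brightest probe (-0.49, adjusted p = 0.303 in limma), while the mean of its 3 probes differed by -0.059, and it was lost when any array was left out (-0.58 to -0.41) and with the scaled processed signal (-0.38). TYK2 (0.31) and IRF5 (0.32) had an unadjusted p under 0.05 and were not called, while IRF5 was called after background correction with quantile normalization (0.41).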

How the data were processed

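Total RNA was labelled with Cy3 and hybridised to 4 single-colour Agilent 4x44K arrays. The authors extracted the spots with Agilent Feature Extraction 10.5.1.1, per the labels, and deposited an intensity per spot without background correction or normalization. In 100% of spots this value was identical to the scanner's median pixel signal. The authors also deposited a quality weight per spot, a score whose setting is not given in the sources used here. Log2 values were computed here from the deposited intensities. Of 43118 non-control spots, 33323 had a weight above 0 on all arrays and formed 26219 probes.

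Probe means entered a limma fit (limma 3.58.1, R 4.3.3) over all probes, with Benjamini-Hochberg adjustment over all probes. The tool, the unnormalized values and the adjustment follow the methods of the study, and the use of the weights and of no covariates was chosen here. A gene was called at an unadjusted p under 0.005. All p are two-sided. Pairs of single arrays were described without a test, with a log2 difference of 0.5 as the limit. The number of arrays limits the precision: an exact permutation test of 2 arrays against 2 cannot go below p = 0.333, and replicates of 1 siRNA were not analysed here. Members and gene lists were chosen with earlier results of these data known. Values on all arrays are given for members with an unadjusted p under 0.05, for the 10 with the widest range over the arrays, and for IFIT1, ISG15, MX1, OAS1, DDX58, IFIH1, EIF2AK2 and IRF7, and of the pathway lists genes with an unadjusted p under 0.05 are named. CXCL10, CXCL11, IFNB1, DICER1 and the members given without all 4 values were chosen after their values were seen. Promoter sequences and starts came from a table of RefSeq windows, in which 41 members were matched. Alternatives were the scanner's processed signal scaled to its 75th percentile, quantile and cyclic loess normalization, normexp correction with an offset of 50, a filter on dim probes, the mean of all probes, no weights, an intensity trend, other thresholds and leaving out each array.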

Additional observations from a re-analysis of the deposited data

How the results depend on the processing

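Under quantile, cyclic loess and background-corrected quantile normalization the median log2 difference of the members between siRNA-B and siRNA-A was 0.19, 0.18 and 0.19, the number past 0.5 in this pair 3 each, and the number past 0.5 between control siRNA-2 and control siRNA-1 was 11 and 14 under the former pair. The number of members lowest with siRNA-A was 14, 14 and 13 and lowest with control siRNA-2 35, 35 and 37, and 1 member was called between knockdown and control, MNDA, as with the filter on dim probes (1) and the mean of all probes (1). With the scaled processed signal 14 members passed 0.5 between the controls, 19 were lowest with siRNA-A, and 1 pathway gene was called. At a log2 difference of 1 the counts were 1 and 2, at an unadjusted p under 0.05 2 members were called, and at an adjusted p under 0.05 1 pathway gene. Leaving out each array in turn gave 0 to 2 called pathway genes, 0 called members and a median of the members from -0.22 (without control siRNA-2) over -0.19 (without siRNA-B) to 0.086 (siRNA-A left out) and 0.091 (control siRNA-1 left out), so its sign depends on the array left out. The calls of CCL2 (1.62, 1.39) were lost without either control array and with the processed signal (2.20), and those of SOCS3, ZBP1 and IFNAR2 without 3, 4 and 4 of the arrays. SOCS3 (0.72) and IFNAR2 (-0.38) also lost theirs with the processed signal, IFNAR2 with the mean of all probes (-0.059), and ZBP1, at background in both controls, under each of the 3 normalizations and with an intensity trend, while IRF5 was called under background-corrected quantile normalization (0.41). IFI44L differed by 0.22 to 1.18 with an array left out. Differences between knockdown and control close to 0 changed sign: with the processed signal OAS1 (-0.010), IFIT1 (-0.029), ISG20 (0.020) and ISG15 (-0.071), with quantile normalization IRF7 (0.012) and ISG20 (0.013), with cyclic loess ISG20 (0.013), and with background-corrected quantile normalization IRF7 (0.026) and ISG20 (0.0016). Leaving out arrays gave ranges that cross 0 for IFIH1 (-0.19 to 0.057), OAS1 (-0.12 to 0.18), IRF7 (-0.21 to 0.076), IFIT1 (-0.28 to 0.29), IFITM1 (-0.54 to 0.11), IFITM3 (-0.51 to 0.11), RSAD2 (-0.39 to 0.14), ISG20 (-0.46 to 0.42), XAF1 (-0.60 to 0.11), ISG15 (-0.17 to 0.19), GBP2 (-1.01 to 0.094), IFI27 (-0.43 to 0.67) and IFI44 (-0.083 to 0.93). Under the normalizations and the processed signal 44 or 45 members were brighter with siRNA-B than with siRNA-A and 52 with control siRNA-1 than with control siRNA-2, where IRF7, MX1 and ISG20 lost the former order under the 3 normalizations and MX1 and AIM2 with the processed signal. With the mean of all probes 46 and 50 members had these orders, and 47 and 48 of 51 with the filter on dim probes. The causes of these shifts were not tested. No paired analysis was possible because RNA of 5 experiments was pooled for each siRNA, which removes any pairing by experiment. The numbers 1 to 4 in the labels name the siRNAs. What limits these comparisons is the number of arrays, and GBP1 is limited by its signal over background.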

Other observations

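Genes other than the members that shared both orders were looked up in the same way. Relative to the median of all genes, 114 genes (0.636%) were brighter by at least 0.3 both with siRNA-B than with siRNA-A and with control siRNA-1 than with control siRNA-2, and 16 of them were members (14.0% of these genes, 30.8% of the members). In the opposite direction 79 genes (0.440%) passed, of which 0 were members. The first of the 114 by the smaller of both differences was JUN, a subunit of the transcription factor AP-1, at 8.67 with siRNA-A, 9.95 with siRNA-B, 9.64 with control siRNA-1 and 8.50 with control siRNA-2, and IFI44 was second. Among the others at the top, chosen after their values were seen, were ATF3, a stress-induced transcription factor (9.36, 10.21, 9.88 and 9.40), IL1B, an inflammatory cytokine (8.60, 9.36, 8.80 and 8.33), the cholesterol transporter ABCA1 (7.67, 8.58, 8.07 and 7.43) and GPR183, an oxysterol receptor (9.93, 10.62, 10.15 and 9.35). Each was measured on 1 array per siRNA and was not tested.

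Across the 52 members the differences siRNA-B minus siRNA-A and control siRNA-1 minus control siRNA-2, which share no array, had a Pearson r of 0.315 and a Spearman rho of 0.262, and across all 17938 genes 0.0525 and 0.0739. The 52 members include GBP1, whose order of arrays is not read, and no value without it was computed. Genes are not independent replicates, and the points share the slide, the labelling and the probe brightness.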
